A study of Mus musculus with 6 samples.

Results

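The immune checkpoint and exhaustion genes were examined in single CD45+ cells of mouse soleus muscle. The set was chosen by symbol and held 9 of the 31053 features in the count matrices. It comprised the inhibitory receptors Pdcd1 (PD-1), Ctla4, Lag3, Tigit and Havcr2 (TIM-3), the costimulatory receptor Icos, the nuclear factor Tox, and the ligands Cd274 (PD-L1) and Pdcd1lg2 (PD-L2). All 9 were found in the files. The set was chosen with earlier results of these data known.

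Immune checkpoints are receptors that dampen lymphocyte activation when they meet their ligands on other cells. Pdcd1 binds Cd274 and Pdcd1lg2, Ctla4 competes with Cd28 for Cd80 and Cd86, Tigit binds Pvr on myeloid and stromal cells, Lag3 binds MHC class II and other ligands, and Havcr2 is carried by myeloid cells as well as by lymphocytes. Icos, a relative of Cd28, promotes helper and regulatory T cell responses, and Tox is a nuclear protein known for the program of chronically stimulated CD8 T cells. Regulatory T cells, which restrain other lymphocytes and accumulate in injured muscle, are known for high Ctla4, Tigit and Icos. Group 2 innate lymphoid cells (ILC2) lack antigen receptors, respond to alarmins and can also carry Pdcd1 and Icos.

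The samples were pooled solei of male C57BL/6 mice, young (4 to 5 months) or old (20 to 22 months), with 1 library for each age in 3 treatments: ambulatory control, hindlimb unloading (HU), in which the hindlimbs carry no weight, and 4 days of reloading after HU (reload). Cells were sorted as CD45+ and DAPI− and captured with 10x Chromium 3′ chemistry. The 6 libraries held 1675 to 3676 barcodes, of which 1494 to 2568 per library were kept, at a median of 2539 (old HU) to 7883 (young reload) unique molecular identifiers (UMIs) per kept cell. Because animals were pooled and each group was 1 library, an age difference within a treatment had no replicate and could not be tested, and every interval below covers counting error only. In the labels, the number that opens a title was shared by both ages of a treatment and differed between the 3 treatments, and the run code in the description differed between control and the rest. Treatment and these label codes cannot be told apart in any comparison between treatments, reload against HU included.

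Some libraries stood apart. The share of barcodes over the filter of 10% mitochondrial UMIs was 4.12% in young and 9.46% in old control. It was 27.5% and 9.60% after HU, and 33.3% and 17.4% at reload. Limits of 5% and 20% were run as alternatives. The control libraries shared 41 barcodes, against at most 17 for any other pair, and in 35 of these the cell was T cell-like in both libraries. All 35 pairs lay in a low-depth lymphoid cluster led by the cycling genes Pclaf, Birc5 and Mki67, with median UMI totals of 743 in the young and 736 in the old library and a ratio of the totals of 0.873 to 1.07 within a pair. That cluster held 103 cells, 45 of them young control and 51 old control, at a median of 949 UMIs, against 3629 in the 725 T cell-like cells of control outside it. The T cell-like ratios in control are therefore given with and without barcodes shared between libraries, which leaves 128 of 164 young and 610 of 657 old cells. The control ratios given below for whole CD4, CD8 and γδ T cell-like, NK cell-like and ILC2-like classes kept their sign and their side of the 1.5-fold rule without them. The CD45 gene Ptprc was seen in 64.4% of T cell-like cells but in 8 of 553 endothelial-like cells (1.45%), a class that took 21.6% (young) and 10.4% (old) of the kept cells after HU and at most 0.719% in any other library.

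The promoters of Pdcd1, Tigit and Cd274 are shown because the comparisons below turn on these receptors and on the ligand of Pdcd1, and because all 3 genes are known to respond to activation signals. The stretches are the 250 bases before the RefSeq gene start on GRCm38.p6 (mm10), written 5′ to 3′ on the gene's strand, at chr1:94052554-94052803 (minus strand), chr16:43664185-43664434 (minus strand) and chr19:29367188-29367437 (plus strand). Capitals mark the core GGAAA bound by NFAT factors, or its reverse complement TTTCC.
Pdcd1: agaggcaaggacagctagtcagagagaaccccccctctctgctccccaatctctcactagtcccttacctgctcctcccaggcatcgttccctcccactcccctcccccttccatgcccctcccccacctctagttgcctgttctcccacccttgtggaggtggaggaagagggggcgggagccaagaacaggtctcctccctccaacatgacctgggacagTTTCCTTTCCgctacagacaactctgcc
Tigit: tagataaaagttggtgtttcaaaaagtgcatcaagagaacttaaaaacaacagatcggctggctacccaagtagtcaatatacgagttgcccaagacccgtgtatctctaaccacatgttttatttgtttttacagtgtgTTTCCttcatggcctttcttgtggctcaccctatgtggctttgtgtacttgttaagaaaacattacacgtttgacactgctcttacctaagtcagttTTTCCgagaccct
Cd274: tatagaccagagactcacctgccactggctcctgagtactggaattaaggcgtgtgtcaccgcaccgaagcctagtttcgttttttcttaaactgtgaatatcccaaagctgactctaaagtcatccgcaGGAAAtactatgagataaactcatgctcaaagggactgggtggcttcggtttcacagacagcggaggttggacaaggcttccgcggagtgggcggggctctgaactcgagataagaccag
RefSeq promoters were given for 6 of the 9 genes. The core GGAAA was present, on either strand, in 5 of these 6, as a tandem pair in Pdcd1 that starts 28 and 23 bases before the gene start, and as separate matches in Tigit 110 and 13 bases before it. The same 5 letters stood in 55.6% of 32851 promoters of that length, so a match is common. The GAS motif TTCNNNGAA (7.02% of promoters) and the interferon response motif, GAAA repeated after any 2 bases (2.98%), had no match in the 250 bases of Cd274 or of the other 5. The ETS core CCGGAA (12.0%) and the TATA box TATAAA (12.4%) had none either, and the AP-1 motif TGANTCA (6.75%) matched in Havcr2 alone, 200 bases before its start. Both strands were searched, and no GGAAA match overlapped a match of another motif. On mm10, Pdcd1 spans chr1:94038305-94052553, Tigit chr16:43648867-43664146 and Cd274 chr19:29367455-29388095. Some members are neighbors: Ctla4 (chr1:60887000-60915832) lies 62.1 kb from Icos (chr1:60977927-61000320), and Cd274 lies 22.8 kb from Pdcd1lg2 (chr19:29410919-29471161).

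Across cell classes the 9 genes fell into lymphoid and myeloid patterns, which the heat map of levels by class shows along its rows. Levels are given as CPM, the UMIs of a gene per 1000000 UMIs of the class, pooled over libraries. They are compared across classes for 1 gene at a time, not between genes. Pdcd1 was highest in γδ T cell-like cells (211 CPM; 368 cells) and ILC2-like cells (182 CPM; 670 cells). Within the ILC2-like class it stood at 276 CPM in the cluster led by Il5 and Il13, the type 2 cytokine genes. Ctla4 reached 208 CPM in CD4 T cell-like cells, with 0 UMIs in ILC2-like cells of any library. In the 20 T cell-like cells with a UMI of Foxp3, the regulatory T cell factor, Ctla4 stood at 800.0 CPM (exact 95% interval 620 to 1016), Tigit at 621 CPM and Icos at 1099 CPM. Icos was at 482 CPM in CD4 T cell-like cells, above 354 CPM in γδ T cell-like and 280 CPM in ILC2-like cells. Tigit was at 323 CPM in CD4, 241 in CD8 and 220.0 CPM in NK cell-like cells, whereas the γδ T cell-like cells held 5 Tigit UMIs in all libraries. Tox was highest in a CD8 T cell-like cluster led by Gzmk (143 CPM), and Lag3 in the cycling cluster above (96.6 CPM).

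**Figure D1:**
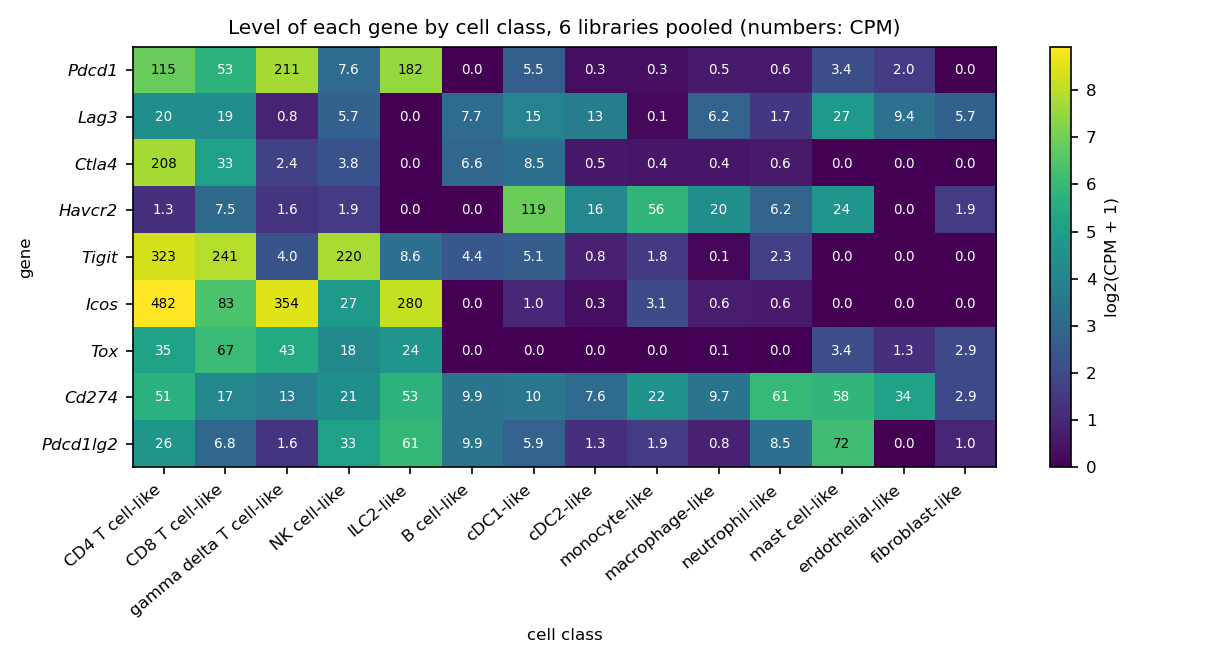
Level of each of the 9 genes (rows) in 14 cell classes (columns), 6 libraries pooled, with color as log2(CPM + 1) and the CPM written in each cell. Along the rows, Pdcd1 was high in γδ T cell-like and ILC2-like cells, Icos in CD4 T cell-like, γδ T cell-like and ILC2-like cells, Tigit in CD4, CD8 and NK cell-like cells, and Havcr2 in cDC1-like cells.

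Free RNA in droplets can place UMIs in cells that do not express a gene. With each cell thinned to 1500 UMIs, a Pdcd1 UMI was seen in 11.2% of T cell-like cells (17.9% unthinned) and in 0.0252% of macrophage-like cells, the background class. The corresponding shares were 15.5% and 0% for Tigit, 22.8% and 0.101% for Icos, 6.37% and 0.101% for Ctla4, and 6.18% and 0.0252% for Tox. For Lag3 the T cell-like share was 1.59% against 0.984% in macrophage-like cells, and the intervals overlapped (0.93% to 2.54% and 0.700% to 1.34%). Lag3 was itself at 15.4 CPM (91 UMIs) in the Lyve1 and Vsig4 macrophage cluster. This class may thus not measure free RNA for Lag3, and the overlap cannot decide the source of its T cell-like UMIs. The median depth before thinning was 3110.5 UMIs in T cell-like and 6097 in macrophage-like cells, and 186 of 1254 T cell-like cells were too shallow to thin. Havcr2 was seen in 0.375% of thinned T cell-like cells and in 0 of 277 B cell-like cells, its background class, with an exact upper bound of 1.32% in the latter.

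In T cell-like cells the balance of members higher and lower in the old library differed between treatments, as did that of all genes. The difference between treatments was not tested. By a rule of size (at least 1.5-fold in CPM, with at least 20 UMIs over both libraries), the old library was higher for 2 of the 6 receptor members measured in control (Ctla4 and Tigit) and lower for 0. Of all 7727 genes measured there, 21.9% were higher and 8.77% lower by the same rule. Without shared barcodes 3 members were higher, Lag3 being added. After HU, 4 members were measured, Ctla4 and Icos being higher and Pdcd1 lower, when 19.5% of genes were higher and 23.8% lower. At reload 5 were measured, none higher and 3 lower (Pdcd1, Tigit and Icos), when 8.62% of genes were higher and 26.9% lower. The members not measured were Havcr2 in every treatment, Lag3 after HU and at reload, and Tox after HU. The median log2 ratio of old over young was 0.14 over all genes in control, -0.06 after HU and -0.20 at reload. TMM scaling, which removes differences in composition, moved every T cell-like log2 ratio by -0.11 in control, 0.41 after HU and 0.29 at reload. The split of all genes then became 17.4% higher and 11.7% lower in control, 35.5% and 9.26% after HU, and 17.6% and 13.2% at reload, so the small ratios after HU depend on the scaling.

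These libraries held few T cell-like cells outside control. There were 164 young and 657 old cells in control, 44 and 222 after HU, and 63 and 104 at reload. The subsets also took different shares of them: in control, γδ T cell-like cells numbered 26 in the young and 201 in the old library, CD8 T cell-like cells 21 and 201, and CD4 T cell-like cells 23 and 134. The 12 macrophage markers summed to 319 CPM in the T cell-like cells of young control and 37.6 CPM in old control, 41.9 and 50.8 CPM after HU, and 157 and 97.9 CPM at reload, against at least 18813 CPM in macrophage-like cells. The part of these markers in the results was not tested. Tigit, Pdcd1, Tox and Ctla4 were themselves close to 0 in macrophage-like cells, as given above.

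Pdcd1, the receptor for both ligands, had the lower level in the old library of every treatment. In T cell-like cells it was at 128 CPM (82 UMIs) in young control and 102 CPM (257 UMIs) in old control, 178 (17 UMIs) and 96.6 CPM (57 UMIs) after HU, and 224 (50 UMIs) and 89.0 CPM (30 UMIs) at reload. The 3 old libraries lay between 89.0 and 102 CPM, and each of the 3 young ones lay above them. On the log2 scale, the old library differed from the young by -0.33 in control (95% interval -0.70 to 0.04), -0.88 after HU (-1.69 to -0.01) and -1.33 at reload (-2.04 to -0.65). Without shared barcodes the control value was -0.12 (-0.53 to 0.31), and with every cell weighted equally, in place of every UMI, it was -1.17.

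The Pdcd1 difference was not uniform over subsets. In γδ T cell-like cells of control, Pdcd1 was at 427 CPM in the young library (43 UMIs in 26 cells) and 176 CPM in the old one (128 UMIs in 201 cells), a log2 ratio of -1.28 (-1.79 to -0.75). All 43 and all 128 of these UMIs lay in the γδ cluster led by Cd163l1, which held 22 of the 26 young and 167 of the 201 old cells. In CD8 T cell-like cells of control the order was the opposite, at 17.0 CPM (2 UMIs) in young and 57.2 CPM (52 UMIs) in old, with an interval that held 0 (-0.18 to 4.83). In CD4 T cell-like cells at reload, 29 UMIs in 28 young cells faced 3 UMIs in 25 old cells, a log2 ratio of -2.79 (-5.15 to -1.10). Of these, 26 young UMIs and 1 old UMI came from the CD4 cluster led by Tnfrsf4 (OX40), with 24 young and 9 old cells.

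As a class, ILC2-like cells carried Pdcd1 at levels that differed little by age. They were at 234 CPM in young and 189.7 CPM in old control (153 and 171 UMIs), 84.7 and 97.2 CPM after HU (13 and 28 UMIs), and 178 and 161 CPM at reload (23 and 14 UMIs). The log2 ratios were -0.30 (-0.62 to 0.02), 0.20 (-0.80 to 1.27) and -0.15 (-1.22 to 0.87). Both HU libraries lay below the other 4. The Il5 and Il13 cluster, where Pdcd1 was highest, held 115 of 182 young and 120 of 247 old ILC2-like cells in control but 2 of 67 and 1 of 119 after HU. In control, Pdcd1 in that cluster was at 322 CPM (145 UMIs) in young and 254 CPM (127 UMIs) in old. The other ILC2-like cluster, led by Dyrk3 and Stc2, had the opposite order, at 39.2 CPM (8 UMIs) and 109.7 CPM (44 UMIs). Without the highest cell of each library the log2 ratios were -0.40 (-0.76 to -0.03) and 1.34 (0.14 to 2.75). NK cell-like cells held 8 Pdcd1 UMIs in all, 2 of them in young control and 6 in 1 cell of young reload.

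Tigit, an inhibitory receptor shared by T and NK cells, was higher in the old library in control and lower at reload. In T cell-like cells it was at 78.1 CPM (50 UMIs) in young and 183 CPM (463 UMIs) in old control, 73.3 (7 UMIs) and 86.4 CPM (51 UMIs) after HU, and 170 (38 UMIs) and 80.1 CPM (27 UMIs) at reload. Old control and young reload were high, and the other 4 libraries lay between 73.3 and 86.4 CPM. The log2 ratios (old to young) were 1.23 in control (0.81 to 1.68), 0.24 after HU (-0.91 to 1.62) and -1.09 at reload (-1.86 to -0.34). The value after HU became 2.06 with a limit of 5% mitochondrial UMIs. Without shared barcodes the control ratio was 1.62 (1.13 to 2.15), and without the cycling cluster as well it was 2.03 (1.44 to 2.69).

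The control difference in Tigit was present in both αβ subsets as whole classes. CD8 T cell-like cells had 11 UMIs in 21 young cells (93.6 CPM) and 266 UMIs in 201 old cells (293 CPM), a log2 ratio of 1.64 (0.78 to 2.66). Of the 266 UMIs, 247 came from the Gzmk-led cluster (545 CPM), which held 126 old but 7 young control cells. This cluster also had the immunoglobulin gene Igkc among its leading genes. The other CD8 cluster, led by Gzmm, had the opposite order, at 64.5 CPM (6 UMIs) in young and 41.7 CPM (19 UMIs) in old. Without the highest cell of each library its interval held 0 (-1.87 to 1.78). In CD4 T cell-like cells, 12 UMIs in 23 young cells (153 CPM) faced 167 UMIs in 134 old cells (407 CPM), a log2 ratio of 1.41 (0.57 to 2.39). When T cell-like cells were instead gated on a Cd4 UMI and no Cd8a or Cd8b1 UMI, the ratio was 2.41 (1.33 to 3.75). The gate on a Cd8a or Cd8b1 UMI and no Cd4 UMI gave 85.8 CPM (20 UMIs) in young and 209 CPM (213 UMIs) in old. T cell-like cells with a Foxp3 UMI were at 539 CPM (3 UMIs) in young and 591 CPM (40 UMIs) in old. NK cell-like cells went the other way in control, at 284 CPM in young (93 UMIs, 93 cells) and 179 CPM in old (95 UMIs, 157 cells), with a log2 ratio of -0.67 (-1.09 to -0.24).

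**Figure D2:**
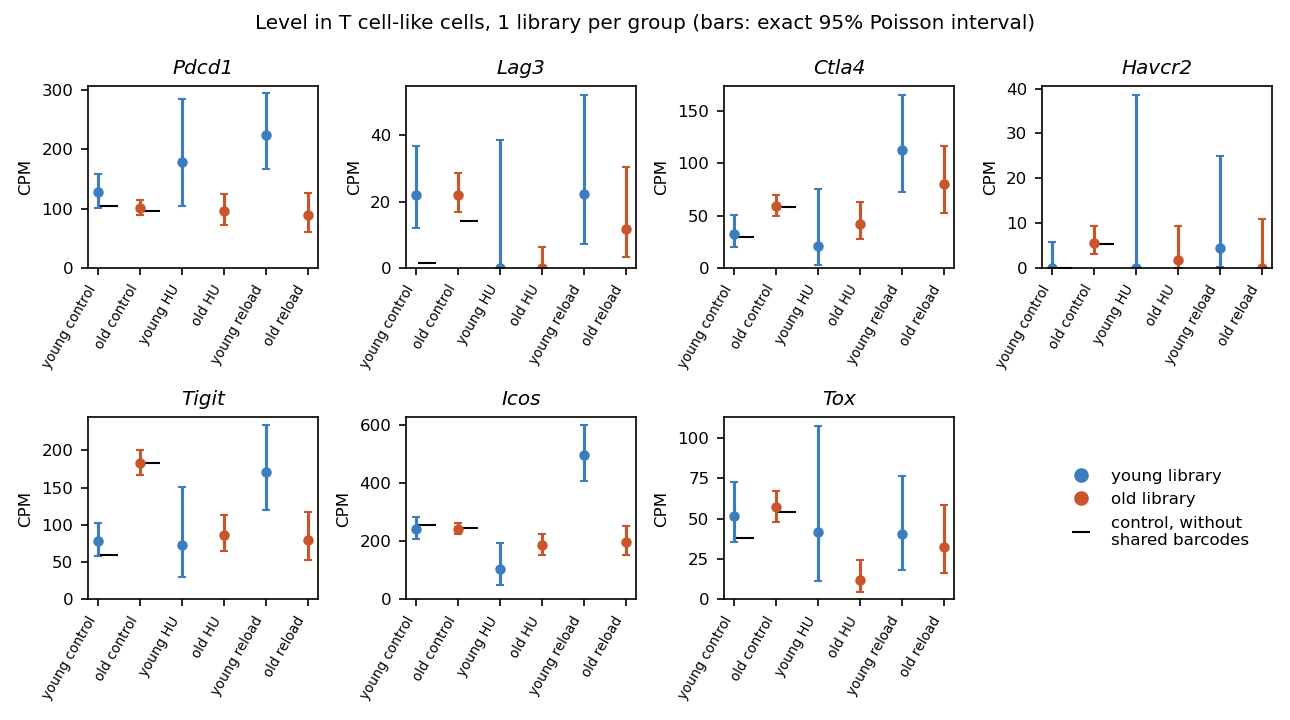
Level (CPM) of the 6 receptors and Tox in T cell-like cells of each library, with points as 1 library each, bars as exact 95% Poisson intervals and black dashes as the control libraries without shared barcodes. Pdcd1 was at 89.0 to 102 CPM in the old libraries and 128 to 224 CPM in the young ones, and Tigit stood apart in old control (183 CPM) and young reload (170 CPM).

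Icos, the costimulatory member, was equal between ages in control as a class and unequal within it. T cell-like cells had 244 CPM in young and 243 CPM in old control (156 and 615 UMIs), 105 and 188 CPM after HU (10 and 111 UMIs), and 497 and 199 CPM at reload (111 and 67 UMIs). Young reload was the highest library and young HU the lowest. The log2 ratios were -0.00 (-0.26 to 0.26), 0.84 (-0.09 to 1.94) and -1.32 (-1.78 to -0.87), and the control value was -0.06 without shared barcodes. Inside the control class, γδ T cell-like cells were at 705 CPM in young and 351 CPM in old, 2.01-fold lower in old (log2 interval -1.39 to -0.60), while CD4 T cell-like cells were at 332 and 524 CPM, a ratio of 0.66 (0.07 to 1.31).

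At reload, Icos in CD4 T cell-like cells was at 1037 CPM in young (81 UMIs) and 394 CPM in old (22 UMIs), with a log2 ratio of -1.40 (-2.15 to -0.70). The Tnfrsf4-led cluster held 24 of the 28 young and 9 of the 25 old cells there. Within that cluster Icos was at 1150 CPM in young and 889 CPM in old, and the interval of the ratio held 0 (-1.18 to 0.36). In old cells, 1 cell held 10 of its 19 old UMIs, and without the highest cell of each library the ratio in the cluster was -1.13 (-2.32 to -0.13). Without the cluster, Icos in T cell-like cells at reload was at -0.41, Pdcd1 at -0.77 and Tigit at -0.65. After HU the γδ T cell-like cells had the opposite order to control, at 93.1 CPM in young (5 UMIs) and 302 CPM in old (72 UMIs), with a log2 ratio of 1.70 (0.41 to 3.36). The γδ clusters behind the 2 treatments differed, since all 24 young and 87 of 90 old γδ cells after HU lay in the cluster led by Tnf, against 4 of 26 and 34 of 201 in control.

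Icos was also lower in old ILC2-like cells of control and reload. The levels were 472 CPM (309 UMIs) in young and 197 CPM (178 UMIs) in old control, 163 (25 UMIs) and 149 CPM (43 UMIs) after HU, and 403 (52 UMIs) and 161 CPM (14 UMIs) at reload. Young control and young reload stood above the other 4 libraries, which lay between 149 and 197 CPM. The log2 ratios were -1.26 (-1.53 to -0.99), -0.12 (-0.87 to 0.65) and -1.33 (-2.29 to -0.45). Within the Il5 and Il13 cluster of control, of similar size at both ages, Icos was at 650.0 CPM in 115 young and 286 CPM in 120 old cells, a ratio of -1.19 (-1.48 to -0.89). In the other ILC2-like cluster, led by Dyrk3 and Stc2, it was at 78.3 CPM in young and 87.3 CPM in old control, and the interval held 0 (-0.74 to 1.11).

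**Figure D3:**
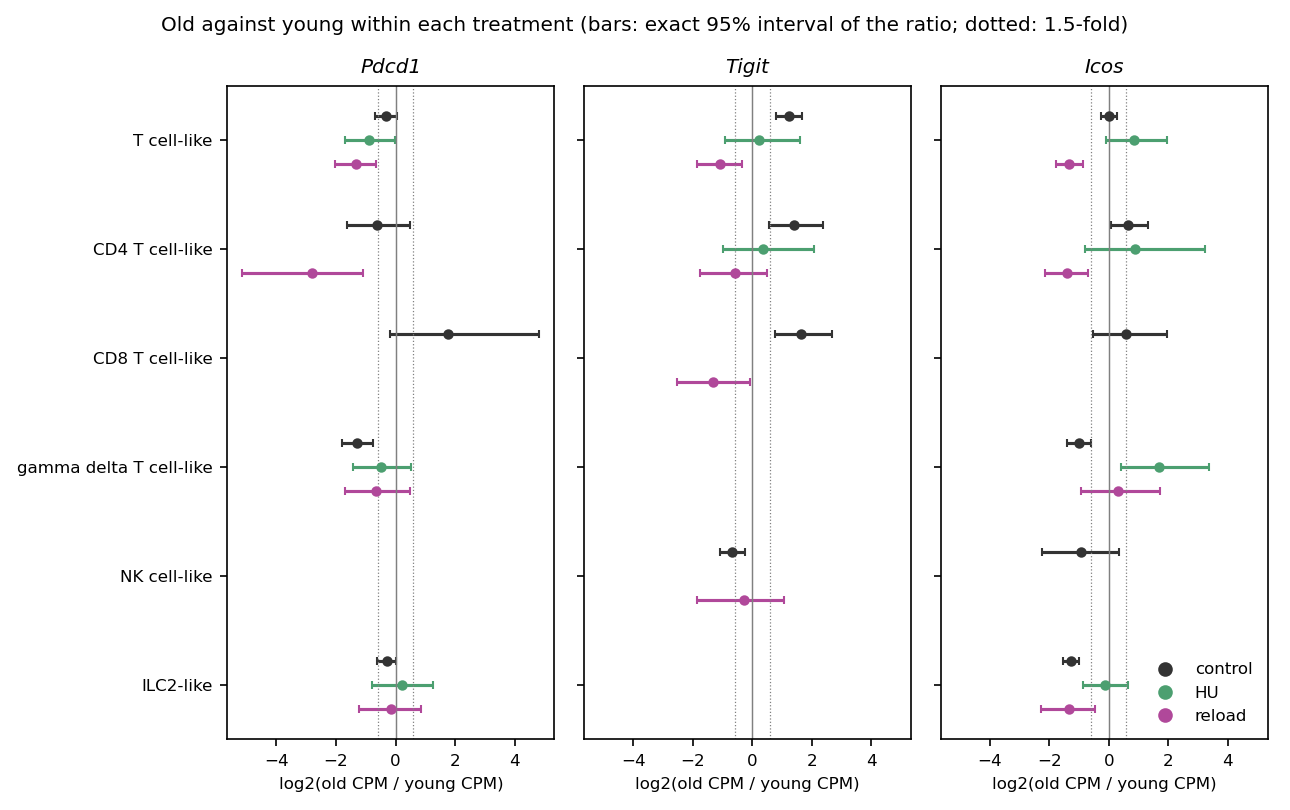
Log2 ratio of old over young CPM for Pdcd1, Tigit and Icos in T cell-like cells, their subsets, NK cell-like and ILC2-like cells, with 1 point per treatment, bars as exact 95% intervals and dotted lines at 1.5-fold; classes under 20 UMIs are left out. For Tigit, the T cell-like points lie at 1.23 in control and -1.09 at reload. For Icos, the ILC2-like points lie at -1.26 in control and -1.33 at reload.

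Ctla4, a high-affinity receptor for Cd80 and Cd86, was highest in CD4 T cell-like cells. T cell-like cells had 32.8 CPM (21 UMIs) in young and 58.9 CPM (149 UMIs) in old control, 21.0 (2 UMIs) and 42.4 CPM (25 UMIs) after HU, and 112 (25 UMIs) and 80.1 CPM (27 UMIs) at reload. Both reload libraries lay above the other 4. The log2 ratio was 0.85 in control (0.18 to 1.58), 1.02 after HU (-0.99 to 4.14) and -0.48 at reload (-1.32 to 0.36). Without shared barcodes the control ratio was 0.96 (0.25 to 1.76). In young control, 1 cell held 10 of the 21 UMIs, and without the highest cell of each library the control ratio was 1.68 (0.79 to 2.71). Within CD4 T cell-like cells of control, which took 23 of 164 young and 134 of 657 old cells, the levels were 217 and 199.97 CPM, with an interval that held 0 (-0.88 to 0.73). The same cell held 10 of the 17 young CD4 UMIs, and without the highest cell of each library the levels were 95.3 and 178 CPM, with a ratio of 0.90 (-0.21 to 2.27). CD8 T cell-like cells of control held 35 Ctla4 UMIs in 201 old cells and 0 in 21 young ones.

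Lag3 and Tox, both known from chronically stimulated CD8 T cells, were sparse. Lag3 had 14 UMIs (21.9 CPM) in young and 56 UMIs (22.2 CPM) in old control, 0 in both HU libraries, and 5 and 4 UMIs at reload. A count of 0 allows up to 31.4 CPM in young HU and 5.08 CPM in old HU, so at this depth a level like that of control could have been missed in young HU but not in old HU. In control, 13 of the 14 young UMIs fell in the cycling cluster. Without shared barcodes 1 young UMI faced 35 old ones, and the log2 ratio of 0.02 (-0.85 to 0.98) became 3.11 (0.54 to 8.45). The old control UMIs included 25 in the Gzmk-led CD8 cluster. Tox was at 51.6 CPM (33 UMIs) in young and 57.0 CPM (144 UMIs) in old control, 41.9 (4 UMIs) and 11.9 CPM (7 UMIs) after HU, and 40.3 (9 UMIs) and 32.6 CPM (11 UMIs) at reload. Each of its ratios had an interval that held 0, as did the control ratio without shared barcodes (0.51, -0.13 to 1.22). In the Gzmk-led cluster of old control Tox stood at 159 CPM.

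Havcr2 was close to absent from T cell-like cells, with 14 UMIs in old control and at most 1 in any other library. Its higher levels were myeloid. Pooled levels were 119 CPM in cDC1-like cells, the dendritic cells that cross-present antigen, 91.5 CPM in the monocyte cluster led by Ace and Treml4, and 56.1 CPM over all monocyte-like cells. Monocyte-like cells of control were at 111 CPM in young (94 UMIs) and 46.9 CPM in old (175 UMIs), a log2 ratio of -1.24 (-1.61 to -0.87). After HU they were at 51.5 CPM (2 UMIs) and 63.7 CPM (19 UMIs), and at reload at 63.6 (25 UMIs) and 44.7 CPM (66 UMIs), with ratios of 0.31 (-1.74 to 3.45) and -0.51 (-1.19 to 0.22). In control, in the monocyte cluster led by Chil3 alone the levels were 112 and 45.0 CPM.

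In macrophage-like cells Havcr2 was at 23.1 CPM (61 UMIs) in young and 19.5 CPM (36 UMIs) in old control, 15.2 (25 UMIs) and 11.3 CPM (25 UMIs) after HU, and 25.1 (312 UMIs) and 14.8 CPM (126 UMIs) at reload. The old library was the lower one in each treatment, with log2 ratios of -0.25 (-0.88 to 0.37), -0.43 (-1.28 to 0.43) and -0.76 (-1.07 to -0.45). At reload the macrophage cluster led by the interferon-induced genes Ifit2 and Ifit3 was at 54.6 CPM in 170 young and 17.0 CPM in 96 old cells, and the main cluster, led by Il10 and Apoe, at 19.9 and 15.1 CPM. cDC1-like cells were at 147 CPM (77 UMIs) and 136 CPM (97 UMIs) in control, 103 (14 UMIs) and 58.9 CPM (13 UMIs) after HU and 130.0 (297 UMIs) and 88.4 CPM (104 UMIs) at reload, where the ratio was -0.56 (-0.89 to -0.23). At reload the cDC1-like cluster led by Ifi205 was at 135 CPM in 134 young and 83.3 CPM in 70 old cells, and the one led by Serpinb6b at 96.0 and 101 CPM, a ratio of 0.08 (-0.69 to 0.85).

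Cd274, the inducible PD-1 ligand, was spread over lymphoid and myeloid classes. In macrophage-like cells it was at 9.49 CPM (25 UMIs) in young and 8.67 CPM (16 UMIs) in old control, 4.86 (8 UMIs) and 5.43 CPM (12 UMIs) after HU, and 9.65 (120 UMIs) and 12.3 CPM (104 UMIs) at reload. The log2 ratio at reload was 0.34 (-0.05 to 0.74), under the 1.5-fold rule, and those in control and after HU were -0.13 (-1.13 to 0.83) and 0.16 (-1.25 to 1.66). The thinned share of macrophage-like cells with a Cd274 UMI (1.44%) was below that of T cell-like cells (3.75%), the background class set for ligands, so it cannot be told from background by that measure. The T cell-like level was itself uneven, with 72.5 CPM in the Tnfrsf4-led CD4 cluster. Within macrophages the Ifit2-led cluster was highest (24.4 CPM pooled), at 19.0 CPM (34 UMIs) in young and 35.0 CPM (33 UMIs) in old reload, whereas the Lyve1 and Vsig4 cluster was at 6.26 CPM.

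The higher myeloid levels of Cd274 lay outside the macrophages. The Ace and Treml4 monocyte cluster was at 77.3 CPM pooled and neutrophil-like cells at 61.1 CPM. Neutrophil-like cells had 18 UMIs (53.9 CPM) in young and 27 (35.6 CPM) in old control, 13 (107 CPM) and 17 (82.6 CPM) after HU, and 1 (17.1 CPM) and 32 (110.0 CPM) at reload. Only 49 young reload cells were neutrophil-like, against 192 old ones, and the log2 ratio of 2.69 had an interval of 0.11 to 8.04. ILC2-like cells were at 47.3 CPM (31 UMIs) in young and 68.8 CPM (62 UMIs) in old control, a ratio of 0.54 (-0.11 to 1.21).

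Pdcd1lg2, the other PD-1 ligand, was scarce in macrophage-like cells, with 0 to 10 UMIs per library and a thinned share (0.101%) below that of T cell-like cells (0.936%). ILC2-like cells held more of it (60.5 CPM pooled) and had 30 UMIs (45.8 CPM) in young and 59 (65.4 CPM) in old control, 4 (26.1 CPM) and 31 (108 CPM) after HU, and 6 (46.6 CPM) and 4 (45.9 CPM) at reload. Old HU was the highest and young HU the lowest of the 6. The log2 ratio after HU was 2.05 (0.55 to 4.01), and in control it was 0.51 (-0.14 to 1.20). Pdcd1 and Pdcd1lg2 were both at their highest ILC2-like level in the Il5 and Il13 cluster, where Pdcd1lg2 stood at 82.5 CPM.

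**Figure D4:**
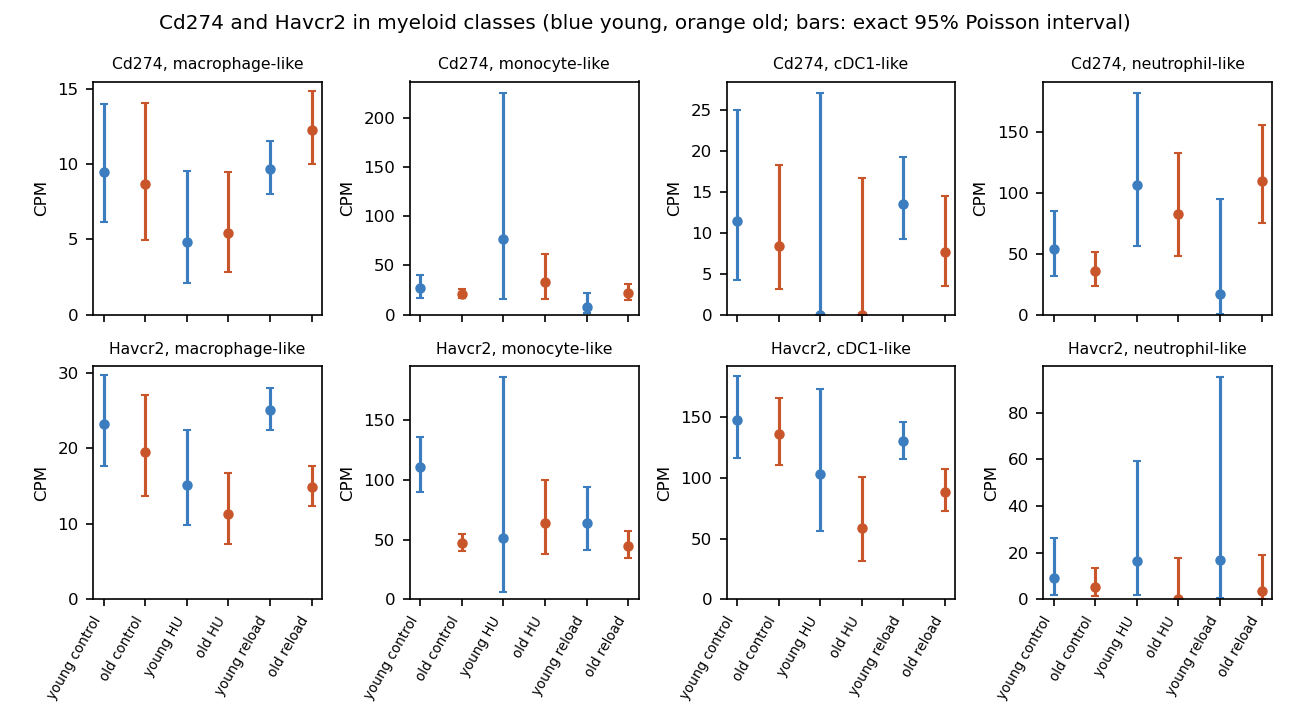
Level (CPM) of Cd274 (top) and Havcr2 (bottom) in macrophage-like, monocyte-like, cDC1-like and neutrophil-like cells of each library, with points as 1 library each and bars as exact 95% Poisson intervals; the vertical scales differ between panels. Havcr2 in macrophage-like cells was lower in the old library of each treatment, and Cd274 in neutrophil-like cells spans 17.1 to 110.0 CPM with wide bars.

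Lag3 was also present in myeloid cells. An unnamed cluster of the dendritic pool led by S100a9 and S100a8 had 60.5 CPM (92 UMIs). In macrophage-like cells there were 46 UMIs (17.5 CPM) in young and 20 (10.8 CPM) in old control, 6 (3.64 CPM) and 17 (7.69 CPM) after HU, and 36 (2.89 CPM) and 57 (6.72 CPM) at reload. The log2 ratios were -0.69 (-1.52 to 0.10), 1.08 (-0.33 to 2.71) and 1.21 (0.59 to 1.86). The Lyve1 and Vsig4 macrophage cluster, where Lag3 was highest (15.4 CPM), made up 306 of 382 young and 193 of 292 old macrophage-like cells in control, 107 of 473 and 350 of 495 after HU, and 49 of 1443 and 122 of 1137 at reload. Within it Lag3 was at 19.8 and 17.4 CPM in control, 0 (0 UMIs) and 9.34 CPM (15 UMIs) after HU, and 18.8 and 20.4 CPM at reload. In the main macrophage cluster, led by Il10 and Apoe, it was at 2.52 CPM (26 UMIs) in young and 5.72 CPM (39 UMIs) in old reload. The part of the cluster mix in the ratios was not tested.

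The number of these genes detected in the same T cell-like cell was counted after thinning to 1500 UMIs. At least 2 of the 6 receptors and Tox were seen in 13.0% of 123 young and 16.1% of 601 old control cells, 9.38% of 32 and 11.7% of 163 after HU, and 32.8% of 61 and 14.8% of 88 at reload. The exact binomial intervals were 7.62 to 20.3 and 13.3 to 19.3 in control, 1.98 to 25.02 and 7.17 to 17.6 after HU, and 21.3 to 46.0 and 8.11 to 23.9 at reload, all in percent. The interval of young reload lay above that of old control and overlapped that of old reload. Without shared barcodes the control shares were 12.4% and 16.2%. At reload the Tnfrsf4-led CD4 cluster took 24 of the 63 young T cell-like cells and 9 of the 104 old ones. Cells of 1 library are not replicates, so these intervals do not extend to animals. Tigit was seen in 52.9% of the 68 Ctla4-positive cells and in 13.0% of the others, and in 11 of the 17 Lag3-positive cells (64.7%). Icos was seen in 47.1% of Ctla4-positive cells and 21.2% of the others.

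**Figure D5:**
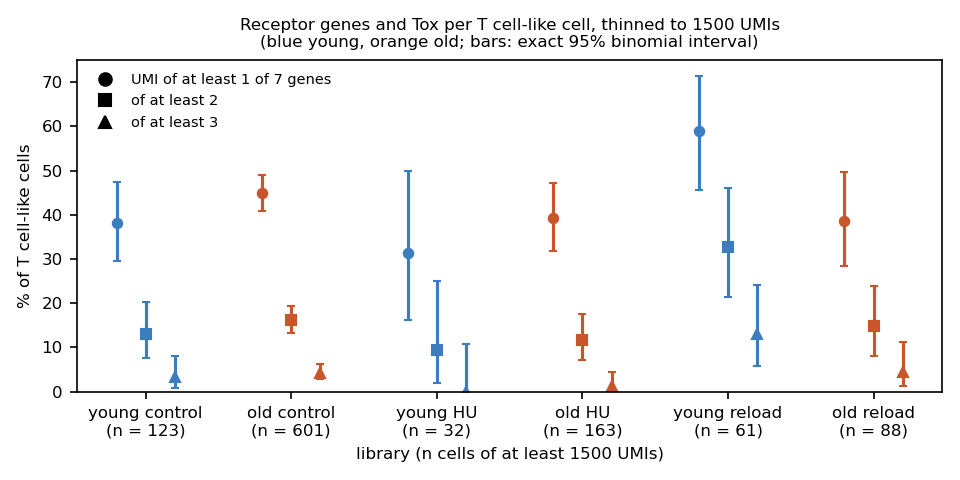
Share of T cell-like cells (%) with a UMI of at least 1, 2 or 3 of the 7 genes in each library after thinning every cell to 1500 UMIs, with bars as exact 95% binomial intervals. For at least 2 genes the share was 32.8% in young reload and 9.38% to 16.1% in the other 5 libraries.

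The only test the design allowed was on sums over each class, by the quasi-likelihood test of edgeR, with p-values adjusted by Benjamini-Hochberg over all genes. Age was compared over the 3 treatments (3 young and 3 old libraries, treatment as a block, 2 residual degrees of freedom), and reload was compared with HU over both ages. In T cell-like sums 7 of the 9 members could be tested. Between ages 0 were called, when 5 of 5001 genes (0.1%) were, and between reload and HU 0 were called, when 23 genes (0.46%) were. At an unadjusted p under 0.05 edgeR had 1 (Pdcd1) and 2 (Ctla4 and Lag3). DESeq2 called 0 members between ages and had 0 under 0.05 unadjusted, Pdcd1 included. Between reload and HU DESeq2 gave an adjusted p for 3 members and called 0, with 2 (Ctla4 and Lag3) under 0.05 unadjusted. Over all genes, 221 and 707 were under 0.05 unadjusted, and DESeq2 called 3 and 35.

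Pdcd1 came nearest between ages, with a log2 fold change of -0.71 (SE 0.26, adjusted p = 0.815 by edgeR), and it was lower in the old library of 3 of 3 treatments. Tigit (0.33, SE 0.34, adjusted p = 0.999) and Icos (-0.20, SE 0.32, adjusted p = 0.999) had directions that differed between treatments. Ctla4 was higher at reload than after HU by 1.23 (SE 0.44, adjusted p = 0.227), in both ages. Icos was at 0.81 in that comparison (adjusted p = 0.370 by edgeR). Without old HU it was at 1.96, but young HU, with 10 Icos UMIs, was then the only HU library. Lag3 had 0 UMIs in both HU libraries and 5 and 4 at reload, so its fitted fold change is not a bound and is not given.

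In macrophage-like sums 3 members were tested. Between ages 0 of 3 were called, when 0 of 9147 genes (0%) were by edgeR and 8 by DESeq2, with 411 genes at an unadjusted p under 0.05. Havcr2 was at -0.48 (SE 0.21, adjusted p = 0.885), lower in the old library of 3 of 3 treatments. Between reload and HU 0 of 3 were called, when 1132 genes (12.4%) were. Cd274 was higher at reload by 1.14 (SE 0.34, adjusted p = 0.0726) and Havcr2 by 0.64 (SE 0.26, adjusted p = 0.144), both in each age. Cd274 passed the threshold without the filter on low counts, where 2419 of 16632 genes did. It also passed with a limit of 20% mitochondrial UMIs, where 976 of 9221 genes did. By DESeq2, 0 members were called and 0 had an unadjusted p under 0.05.

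Genes of the same pathways were read from lists. Of 14 other inhibitory receptors, 10 were measured in T cell-like cells of control, 2 higher and 1 lower in old, with a median log2 ratio of 0.11 against 0.14 over all genes. After HU 5 were measured (0 higher, 1 lower) and at reload 5 (1 higher, 2 lower). Over all genes in T cell-like cells, 21.9% were higher and 8.77% lower in control, 19.5% and 23.8% after HU, and 8.62% and 26.9% at reload. Klrc1 (NKG2A) had the same signs as Tigit, at 1.45 in control (0.82 to 2.16) and -1.53 at reload (-2.67 to -0.47), and at reload Cd5, a dampener of antigen receptor signals and a T cell marker here, was at -1.21 (-1.95 to -0.49). Pdcd4, a translation inhibitor that is not a receptor, was at 0.65 there (-0.06 to 1.41), and Vsir (VISTA) at -0.24 (-1.04 to 0.58). The lowest ratios were Cd160 in control (-0.78) and Cd96 after HU (-1.27), both with intervals that held 0.

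Costimulatory receptors, of which 10 were listed, were mostly lower in old T cell-like cells at reload. Of the 9 measured, 6 were lower by the rule of size and 0 higher, against 26.9% of all genes lower, and their median was -0.96 against -0.20 over all genes. Tnfrsf4 was lowest (-2.74, -3.63 to -1.95; 16 old and 71 young UMIs), Tnfrsf18 (GITR) was at -1.44 (-2.04 to -0.87), Cd2, an adhesion receptor, at -1.05 (-1.56 to -0.55), and Cd28 at -0.96 (-1.45 to -0.48). Tnfrsf25 was the highest, at 0.32 (-0.92 to 1.67). With TMM factors 5 were lower and 1 higher, against 13.2% and 17.6% of all genes. The Tnfrsf4-led CD4 cluster took 24 of 63 young and 9 of 104 old cells here, and without it 5 of 6 measured were lower, with Tnfrsf4 at -2.04 and Tnfrsf18 at -0.99, against 21.2% of all genes. In control 2 of 10 were higher, with Cd27 at 0.81 (0.33 to 1.32), and 1 was lower, Tnfrsf9 (4-1BB) at -0.68 (-1.36 to 0.04). After HU 1 of 8 was higher, Cd40lg at 2.02 (0.09 to 5.10; 2 young UMIs), and 1 lower, Cd28 at -0.86 (-1.53 to -0.13). Of all genes, 21.9% were higher and 8.77% lower in control, and 19.5% and 23.8% after HU.

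Of 16 transcription factors linked to exhaustion, 15 were measured in control, 6 higher and 1 lower, with a median of 0.52 against 0.14 over all genes. The shares of all genes past the rule there were 21.9% higher and 8.77% lower. Eomes, a T-box factor of CD8 and NK cells, was highest at 1.68 (0.79 to 2.71) and Id3 lowest at -0.97 (-1.44 to -0.48). The activation-induced factors Nr4a1 and Nr4a2 were at 0.45 and 0.73. After HU 3 of 11 were higher, led by Nr4a3 at 1.88 (0.62 to 3.53), and 3 lower, led by Id2 at -1.38 (-1.89 to -0.84). Of all genes, 19.5% were higher and 23.8% lower after HU, and 8.62% and 26.9% at reload. At reload 1 of 13 was higher (Id3, 0.73, -0.52 to 2.12) and 5 lower, led by the AP-1 partner Batf at -1.66 (-2.91 to -0.51), with a median of -0.54. With TMM factors 2 were higher and 2 lower at reload, against 17.6% and 13.2% of all genes. Without the Tnfrsf4-led CD4 cluster 3 of 11 were higher and 2 lower.

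In macrophage-like cells, ligands for the other checkpoint and costimulatory receptors were close between ages at reload, with a median log2 ratio of 0.01 against -0.02 over all genes. Of 18 listed, 10 were measured in control (1 higher, 2 lower), 10 after HU (3 higher, 2 lower) and 13 at reload (2 higher, 0 lower). Tnfsf9, the ligand of 4-1BB, was the highest in control at 0.85 (0.67 to 1.02; 628 old and 499 young UMIs) and after HU at 2.23 (1.99 to 2.47; 1080 old and 172 young UMIs), and at reload it was 0.06 (0.01 to 0.11). Icosl, the ligand of Icos, was lowest in control at -0.66 (-1.21 to -0.13). Vsir was lowest after HU (-0.73, -0.97 to -0.49) and at reload (-0.40, -0.51 to -0.30), and Cd276 (B7-H3) highest at reload (0.68, 0.21 to 1.14). Lgals9, a ligand of Havcr2, was at 0.41, -0.54 and -0.22 in control, HU and reload, and Hmgb1 at 0.06, -0.29 and 0.01. After HU, the macrophage cluster led by Cd209f and Fcna held 358 of 473 young and 87 of 495 old macrophage-like cells. The Lyve1 and Vsig4 cluster held 107 and 350 of them. The part of this cluster mix in the ratios after HU was not tested.

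A list that joins PD-1 signaling with the interferon-γ axis that induces Cd274 was read in the same cells, with 11 of 14 genes measured in each treatment. In control 3 were higher and 0 lower, with the receptor chain Ifngr1 at 0.65 (0.42 to 0.88) and the other chain, Ifngr2, lowest at -0.27 (-0.54 to 0.00). After HU 3 were higher and 1 lower, with Jak2 at 2.20 (1.31 to 3.22), Stat3 at 1.66 (1.35 to 1.98) and Ptpn6, a phosphatase of inhibitory receptor signaling, at -1.03 (-1.42 to -0.64). The cluster mix of these cells after HU differed between ages, as given above. At reload 0 were past 1.5-fold either way, with Irf1 the highest at 0.47 (0.32 to 0.62) and Ifngr1 the lowest at -0.36 (-0.45 to -0.27), and Jak1 was at 0.09. Over all genes in macrophage-like cells, 12.0% were higher and 9.56% lower in control, 14.5% and 23.8% after HU, and 6.55% and 5.13% at reload. These counts describe the lists and are not tests.

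The genes most like each member over 20 cell classes were found by Pearson's r of log2(CPM + 5), given as a description over classes that share libraries and depth. They were Cxcr6 (r = 0.965), Tcrg-C4 and Tnfsf11 for Pdcd1, Ifng (0.975), Fasl and Klrc1 for Tigit, Camk4 (0.976), Bcl11b and Trbc1 for Icos, and Slamf1 (0.942), Cd5 and Trbv4 for Ctla4. For Tox they were Zap70 (0.961), Trbc2 and Trbc1, and for Lag3 Rcc1 (0.763), Flad1 and Enkd1. For Havcr2 they were Man2b1 (0.869), Phf11a and Met, for Cd274 Slc39a4 (0.790), Gm15283 and Plk3, and for Pdcd1lg2 Gnai3 (0.887), Rab27b and Sytl3.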

How the data were processed

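The authors deposited filtered matrices of raw UMI counts per gene and barcode for 6 libraries, made with Cell Ranger 3.1.0 on mm10 per the submitters' processing notes. From these counts, barcodes with at least 200 genes and at most 10% mitochondrial UMIs were kept, 340 doublets were marked at 0.8% per 1000 barcodes and removed, and 12220 of 15467 barcodes remained. Cells were clustered with Seurat 5.3.0 in R 4.3.3 (2000 variable genes, 30 principal components, resolution 0.8) into 21 clusters, and lymphoid and dendritic cells again (20 components, 11 and 8 clusters). A cluster was named "-like" when at least 3 fixed markers were each found in 25% of its cells and 1.5-fold enriched. The 805 cells of unnamed clusters entered no first-level class. Two-sided exact 95% Poisson and binomial intervals (scipy 1.17.1) cover counting error only. A count of 0 was given a floor of 3 counts. Class sums over libraries were tested with edgeR 4.0.16 (TMM, treatment and age as terms, 2 residual degrees of freedom), with DESeq2 1.42.0 as an alternative. Called genes had an adjusted p under 0.05. Both scripts were tested on simulated data.

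The 9 genes and the pathway lists were chosen with earlier results of these data known. The genes named were the 9 members, and of each list the 3 with most UMIs and the highest and lowest ratio in each treatment, plus for each member the 3 genes most correlated over classes of log2(CPM + 5). All but 1 of the genes so chosen are reported here. Cd244a was matched under its listed symbol Cd244. Alternatives were mitochondrial limits of 5% and 20%, no doublet removal, resolutions of 0.4 and 1.6, TMM factors, equal weight per cell, unscaled UMIs per cell, a gate on transcripts, other minimums and folds, and each library left out. Leaving out shared barcodes, the cycling cluster, the Tnfrsf4-led cluster or the highest cell was chosen after seeing the data. The dendritic cell-like class was not compared between ages, since a cluster of it led by Pf4 and Folr2 was macrophage-like and held 83 of 294 young and 7 of 214 old control cells.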

Additional observations from a re-analysis of the deposited data

Results flagged for a closer look

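Several age ratios had opposite signs in different treatments. With 1 library per group, the difference between treatments was not tested, and treatment cannot be told apart from the label codes given above. Values are log2 ratios of old to young, each past 1.5-fold with at least 20 UMIs.

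In T cell-like cells Tigit was at 1.23 in control and -1.09 at reload, and Icos at 0.84 after HU and -1.32 at reload. Among subsets, Tigit in CD8 T cell-like cells was at 1.64 in control and -1.32 at reload (14 old and 12 young UMIs). Without the highest cell of each library the reload value was -1.37, with an interval that held 0 (-2.78 to 0.08). Icos in CD4 T cell-like cells was at 0.66 in control, 0.89 after HU (30 old and 3 young UMIs) and -1.4 at reload. Without the highest cell of each library the value after HU was 0.88, with an interval that held 0 (-1.15 to 4.02). Icos in γδ T cell-like cells was at 1.7 after HU and -1 in control, where different γδ clusters held most cells. In macrophage-like cells Lag3 was at 1.08 after HU, 1.21 at reload and -0.69 in control, beside shares of the Lyve1 and Vsig4 cluster that differed as given above. Within the macrophage cluster led by Il10 and Apoe, Lag3 at reload was at 2.52 CPM in young and 5.72 CPM in old. In neutrophil-like cells Cd274 was at 2.69 at reload, resting on 1 young UMI, and -0.6 in control.

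Some members had UMIs in cell classes outside the comparisons. Mast cell-like cells of old control held 16 Pdcd1lg2 UMIs in 31 cells, against 0 in the 15 young control cells. Endothelial-like cells of old HU held 8 Lag3 UMIs and 30 Cd274 UMIs, and those of young HU held 19 Cd274 UMIs. The control libraries had 3 and 7 endothelial-like cells, which is too few for a comparison.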

How the results depend on the processing

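No paired analysis was possible because each group was 1 library, beyond the terms the fits already held (treatment between ages, age between reload and HU). The cause of the differences below was not tested. Of the receptor members in T cell-like cells, the number lower after HU (1) became 0 with a 5% mitochondrial limit, with the gate on transcripts, with TMM factors and with a fold of 2, and 2 at a minimum of 5 UMIs. The number lower in control (0) became 3 with every cell weighted equally, and the number higher became 1 in control and 1 after HU with a fold of 2. Genes called between ages in T cell-like sums (5) became 32 with no filter on low counts, 1 with the gate, 1 without shared barcodes, 3 by DESeq2, and 21 (without young reload) to 66 (without old control) when 1 library was left out. In macrophage-like sums (0) they became 84 with no filter, 8 by DESeq2, and 0 to 9 (without young HU) with 1 library left out. Between reload and HU, T cell-like calls (23) became 87 with no filter, 8 with the gate, 35 by DESeq2, and 21 (without young reload) to 223 (without young control) with 1 library left out. Macrophage-like calls (1132) became 2419 with no filter, 471 with the gate, and 2 (without young reload) to 2292 (without old HU) with 1 library left out. The share of T cell-like cells with at least 2 of the genes was 28.05% in young control, 30.44% in old control and 52.38% in young reload when not thinned, and 11.72% in old control and 5.88% in old HU when thinned to 1000 UMIs. Among single ratios in control, Lag3 was 3.11 without shared barcodes, 2.92 also without the cycling cluster and -0.94 with equal weight per cell, where Pdcd1 was -1.17, Tox -0.76, Icos 0.41 and Tigit 0.80. Tigit after HU was 2.06 with a 5% mitochondrial limit. Among T cell-like ratios of the receptor members past 1.5-fold as reported, none changed sign under the filter, clustering, scaling and shared-barcode alternatives. Without the Tnfrsf4-led CD4 cluster, 1 receptor member was higher after HU and 1 at reload. Ctla4 in CD4 T cell-like cells after HU rested on 20 old UMIs and 1 young UMI. Without the highest cell of both libraries no young UMI was left. The value of -0.239 is then a lower bound set by the floor of 3 counts, not a change of sign. Depth limits the HU libraries most, with 44 young T cell-like cells.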
